A study of Mus musculus with 24 samples.

Results

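Branched-chain amino acid catabolism was followed in mouse gastrocnemius muscle through 10 genes, namely Bcat2, Bckdha, Bckdhb, Dbt, Bckdk, Ppm1k, Ivd, Mccc1, Hibadh and Aldh6a1. These genes were chosen by name for their place in the pathway, with earlier results of these data known. All 10 of them, out of 55416 genes counted, were among the 16408 with enough reads to be tested. RNA was sequenced from 24 mice, 6 in each of 4 groups, to compare physical inactivity with normal activity in each sex. The SMC mice lived for 8 weeks in the small mouse cage, an acrylic box that restricts gross movement, and the sham mice were ambulatory. The mice were wild type. The strain was C57BL/6J in the study's text and C56BL6J in the sample labels, and the study's mice were bought at 8 weeks of age. Whether these sham and SMC mice had been caged in pairs or separately was not given in the sources used here.

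Leucine, isoleucine and valine are the branched-chain amino acids, and skeletal muscle is a main site where they are first broken down. The mitochondrial aminotransferase encoded by Bcat2 turns them into branched-chain ketoacids, and the branched-chain ketoacid dehydrogenase complex then commits them to oxidation. The kinase encoded by Bckdk phosphorylates and switches off that complex, the phosphatase encoded by Ppm1k switches it back on, and separate sets of enzymes finish each carbon skeleton.

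With SMC, none of the 10 genes passed a false discovery rate (FDR) of 0.05 in males, in females or over both sexes. The values nearest the threshold were those of Bckdk, Dbt and Bcat2. Averaged over the sexes, the log2 fold change of SMC against sham was 0.18 for Bckdk, -0.22 for Dbt and -0.17 for Bcat2. A difference that did pass was between the sexes, where Bckdhb, which encodes a subunit of the dehydrogenase, was lower in males than in females.

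The promoters of Bcat2, Bckdk and Bckdhb are shown because Bckdhb passed between the sexes and Bcat2 and Bckdk were near the threshold with SMC. Each sequence holds the 250 bases before a transcription start in the RefSeq annotation of GRCm38.p6, written 5′ to 3′ on the strand of the gene. Bcat2 and Bckdhb each had 2 starts there, and the one nearest the start of the gene in GENCODE M21 was used. Capitals mark CACCC or its reverse complement GGGTG, the core letters bound by factors of the KLF family. One of these factors, Klf15, is described with the rest of the pathway.
Bcat2 (chr7:45569903-45570152, plus strand): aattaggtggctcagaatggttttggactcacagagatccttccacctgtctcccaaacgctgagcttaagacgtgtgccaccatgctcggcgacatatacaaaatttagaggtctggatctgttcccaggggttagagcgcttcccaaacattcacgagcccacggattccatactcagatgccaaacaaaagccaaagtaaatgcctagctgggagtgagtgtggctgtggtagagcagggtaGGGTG
Bckdk (chr7:127903823-127904072, plus strand): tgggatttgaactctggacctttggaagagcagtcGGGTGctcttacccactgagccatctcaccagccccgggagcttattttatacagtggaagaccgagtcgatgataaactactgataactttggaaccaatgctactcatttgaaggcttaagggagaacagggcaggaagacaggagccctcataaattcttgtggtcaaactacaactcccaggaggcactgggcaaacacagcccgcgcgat
Bckdhb (chr9:83924887-83925136, plus strand): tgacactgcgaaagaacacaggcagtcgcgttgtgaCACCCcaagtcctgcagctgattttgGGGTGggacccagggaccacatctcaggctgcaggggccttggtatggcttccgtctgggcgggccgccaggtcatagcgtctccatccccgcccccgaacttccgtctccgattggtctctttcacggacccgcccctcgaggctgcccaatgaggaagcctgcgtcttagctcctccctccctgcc

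RefSeq promoters were matched for 9 of the 10 genes, the exception being Dbt. CACCC was present on either strand in 7 of the 9, against 52.0% of 32851 promoters of the same length. CCAAT was present in 7 of the 9, against 33.9% of all promoters, and GGGCGG, the GC box, in 4 of the 9, against 32.7%. AGGTCA, a nuclear receptor half-site by its letters, was present in 2 of the 9, those of Bckdhb and Ppm1k, against 14.02%. The promoters of Bcat2 and Bckdk each held a single CACCC and that of Bckdhb held 2. These matches describe letters in a window, and whether any of them is bound was not tested.

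Levels are given as CPM, read counts scaled to the size of the library by the TMM method of edgeR. Totals per mouse lay between 23026627 and 36880413 counts, and the counts of single members between 277 and 4752. For Bckdhb, a gene of few counts, counting error is a sizeable part of the spread between mice, which the edgeR fit takes in as a whole. Its SD was 5.74% to 10.3% of the group mean. Ppm1k, also of few counts, had a wider spread, with an SD of 13.6% to 21.3% of the group mean. Muscle markers were present in every library, with a summed level of 8 genes of 71102 to 140528 CPM and none of them at 0. Male sham replicate 4 and female sham replicate 7 stood apart in slow fibre transcripts. Their summed level of 10 slow fibre genes was 93.2 and 73.1 CPM, where the group medians were 1786 and 2203 CPM. Results that change without these mice are given both ways. Female sham replicate 8 differed by other measures, with the highest TMM factor of all libraries, 1.32. Its summed level of red blood cell genes was the highest of its group, at 1844 CPM where the median was 216 CPM. The same held for macrophage genes, at 109 CPM where the median was 61.9 CPM. Female sham replicate 8 was left out only by itself, not together with the mice that stood apart. In bulk muscle, fewer cells of a type and less RNA per cell cannot be told apart.

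Per kilobase of exon, the dehydrogenase subunit Bckdha had the highest level of the 10 genes, with a mean of 45.9 CPM per kb over the 24 mice, above 97.0% of the genes tested. It was followed by the kinase gene Bckdk at 28.8, Aldh6a1 at 20.7 and Ivd at 16.03 CPM per kb, and each of these levels exceeded the next in 23 or 24 of the 24 mice. Bcat2 at 9.87, Bckdhb at 8.80 and Hibadh at 7.78 CPM per kb were not separated beyond the spread, since each exceeded the next in 18 of 24 mice. Hibadh exceeded Dbt, at 6.83 CPM per kb, in 22 mice. The lowest levels were those of the phosphatase gene Ppm1k at 3.49 and of Mccc1 at 3.11 CPM per kb, still above 62.6% of tested genes. The subunits of a single enzyme complex thus differed widely in mRNA per length, with Bckdha well above Bckdhb and Dbt in every mouse. Exon lengths came from the GENCODE M21 annotation, and the order of the levels depends on them. They were longest for Mccc1 at 10952 bases and Hibadh at 10179 bases. In CPM without division by length, Aldh6a1 had the highest mean at 119.7 and Bckdhb the lowest at 15.88. Mccc1, at 34.05 CPM, then lay above Dbt at 22.85 and Ppm1k at 21.03 CPM. Which transcript lengths were present in this muscle was not tested. Of the exon bases of Bckdha, 61.7% also lie in B3gnt8 on the opposite strand. The strand setting of the counting was not given in the sources used here, so reads there could not be told apart, and B3gnt8 itself had group means of 0.818 to 1.01 CPM.

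**Figure D1:**
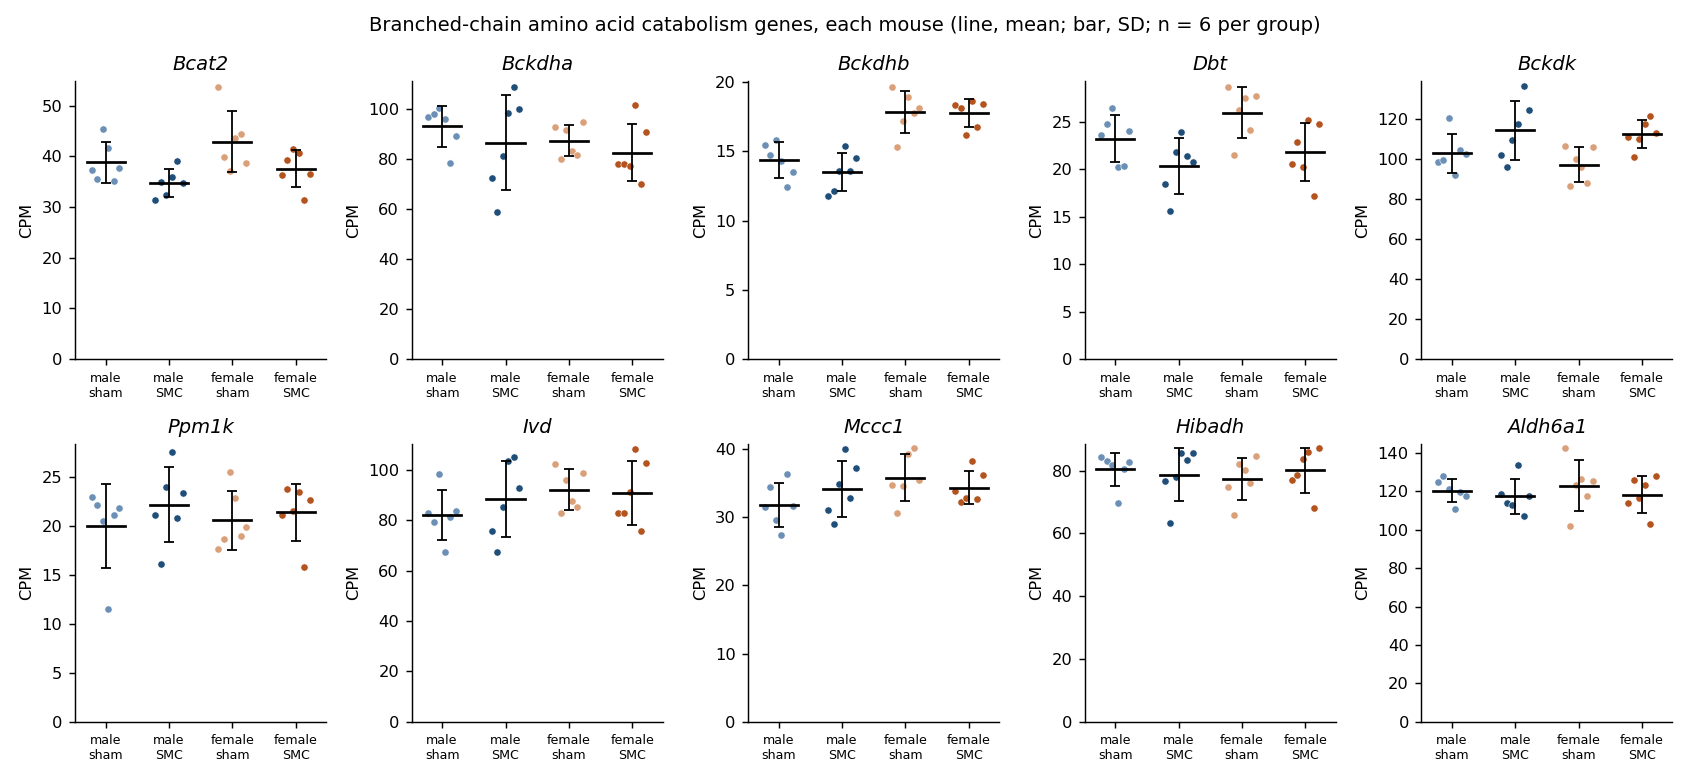
Level in CPM (vertical axes, each starting at 0) of the 10 genes in each of the 24 mice, by group, with the mean as a line and the SD as a bar. The sham and SMC points of each sex overlap for every gene, while all 6 SMC males lie below all 6 SMC females for Bckdhb.

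Bcat2 (chr7:45570153-45589711 in GRCm38, plus strand) encodes the enzyme of the first, reversible step. In males its level ran from 35.0 to 45.3 CPM with a median of 37.5 in sham, and from 31.5 to 39.1 with a median of 34.8 in SMC. In females it ran from 36.98 to 53.7 CPM with a median of 41.8 in sham, and from 31.4 to 41.4 with a median of 37.8 in SMC. The medians were lower with SMC in both sexes, but the groups overlapped, and the highest value belonged to female sham replicate 7. The log2 fold change was -0.16 (SE 0.0879, edgeR FDR 0.522) in males and -0.19 (SE 0.0878, edgeR FDR 0.372) in females. Averaged over the sexes it was -0.17 (95% interval -0.30 to -0.046, edgeR FDR 0.134), and -0.13 (edgeR FDR 0.196) without the libraries that stood apart. In GENCODE M21, 15.9% of the exon bases of Bcat2 lie opposite 0610005C13Rik, whose group means were 0.0240 to 0.135 CPM.

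The dehydrogenase complex is built from the E1 subunits encoded by Bckdha and Bckdhb and the E2 core encoded by Dbt. Dbt (chr3:116513070-116549981 in GRCm38, plus strand) ran from 20.3 to 26.5 CPM with a median of 23.8 in male sham and from 15.6 to 23.9 with a median of 21.1 in male SMC. In females it ran from 21.5 to 28.7 CPM with a median of 26.9 in sham and from 17.2 to 25.2 with a median of 21.8 in SMC. The SMC groups reached lower than the sham groups in each sex, with overlap. The log2 fold change was -0.19 (SE 0.104, edgeR FDR 0.507) in males and -0.25 (SE 0.104, edgeR FDR 0.299) in females. Over both sexes it was -0.22 (95% interval -0.37 to -0.071, edgeR FDR 0.104).

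Bckdha and Bckdhb had smaller differences with SMC. Bckdha had medians of 96.2 CPM in male sham, 89.5 in male SMC, 87.3 in female sham and 78.0 in female SMC, and the male SMC mice were the most spread, from 58.6 to 108.5 CPM. The log2 fold change over both sexes was -0.093 (95% interval -0.26 to 0.076, edgeR FDR 0.600). For Bckdhb the value over both sexes was -0.049 (95% interval -0.16 to 0.061, edgeR FDR 0.687). The ends of the Bckdhb interval correspond to folds of 0.896 and 1.04.

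Bckdk (chr7:127904082-127910221 in GRCm38, plus strand) encodes the kinase that inhibits the complex. Its level ran from 91.8 to 120.2 CPM with a median of 101 in male sham and from 96.0 to 136 with a median of 113 in male SMC. In females it ran from 86.3 to 106 CPM with a median of 98.0 in sham and from 101 to 121 with a median of 112 in SMC. The SMC medians lay above the sham medians in both sexes, opposite in sign to Bcat2 and Dbt, and the groups overlapped. The log2 fold change was 0.15 (SE 0.0831, edgeR FDR 0.520) in males and 0.21 (SE 0.0831, edgeR FDR 0.275) in females. The average over the sexes was 0.18 (95% interval 0.059 to 0.30, edgeR FDR 0.100), and this FDR ran from 0.0587 to 0.212 over the other count models and filters.

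Ppm1k encodes the opposing phosphatase. Its medians were 21.5 CPM in male sham, 22.3 in male SMC, 19.4 in female sham and 22.1 in female SMC. A single low mouse in 2 of the groups widened the spread, at 11.5 CPM in male sham replicate 4 and 15.8 CPM in female SMC replicate 23. The log2 fold change over both sexes was 0.10 (95% interval -0.11 to 0.31, edgeR FDR 0.653), and 0.040 without male sham replicate 4.

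The remaining genes act after the complex. Ivd and Mccc1 serve the breakdown of leucine, as isovaleryl-CoA dehydrogenase and a subunit of methylcrotonyl-CoA carboxylase. Ivd had medians of 82.1 CPM in male sham and 88.9 in male SMC, and of 91.8 and 87.1 CPM in the female groups. The medians of Mccc1 were 31.5 and 33.9 CPM in males and 35.1 and 33.4 CPM in females, in the same order. Both genes thus had a higher median with SMC in males and a lower one in females, but the interaction of sex and SMC was tested directly and gave log2 values of 0.13 for Ivd and 0.16 for Mccc1, with edgeR FDR of 0.997 and 0.976. Over both sexes the log2 fold change was 0.041 (95% interval -0.12 to 0.20) for Ivd and 0.022 (95% interval -0.098 to 0.14) for Mccc1, with edgeR FDR of 0.835 and 0.893.

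Hibadh and Aldh6a1 encode dehydrogenases of the valine branch. Hibadh had medians of 82.4 CPM in male sham, 80.7 in male SMC, 78.2 in female sham and 81.1 in female SMC, and a log2 fold change over both sexes of 0.011 (95% interval -0.10 to 0.13, edgeR FDR 0.950). Aldh6a1 had medians between 115.8 and 124 CPM in the 4 groups, and a log2 fold change of -0.045 (95% interval -0.15 to 0.062, edgeR FDR 0.708). These were among the steadiest of the 10 genes, with the highest mouse 1.38 times the lowest for Hibadh and 1.402 times for Aldh6a1, against 2.41 times for Ppm1k. In GENCODE M21, 18.6% of the exon bases of Aldh6a1 lie opposite Bbof1, whose group means were 1.79 to 2.40 CPM.

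Counted together, 0 of the 10 genes were called in males, where 0% of all tested genes were, and 0 of 10 in females, where 0.341% were. Over both sexes 0 of 10 were called, against 2.36% of all genes. At an unadjusted p under 0.05 there were 0 of 10 in males (11% of all genes), 3 of 10 in females (12.5%), which were Bckdk, Dbt and Bcat2, and the same 3 over both sexes (17.5%). No member had SMC mice all above or all below the sham mice, in males (0.902% of all genes) or in females (1.03%). The median log2 fold change of the 10 genes was -0.033 in males, -0.039 in females and -0.017 over both sexes, where the medians of all genes were -0.0044, -0.011 and -0.0089. For the sex difference in the SMC response, 0 of 10 were called (0% of all genes) and 0 of 10 had an unadjusted p under 0.05 (5.13%).

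**Figure D2:**
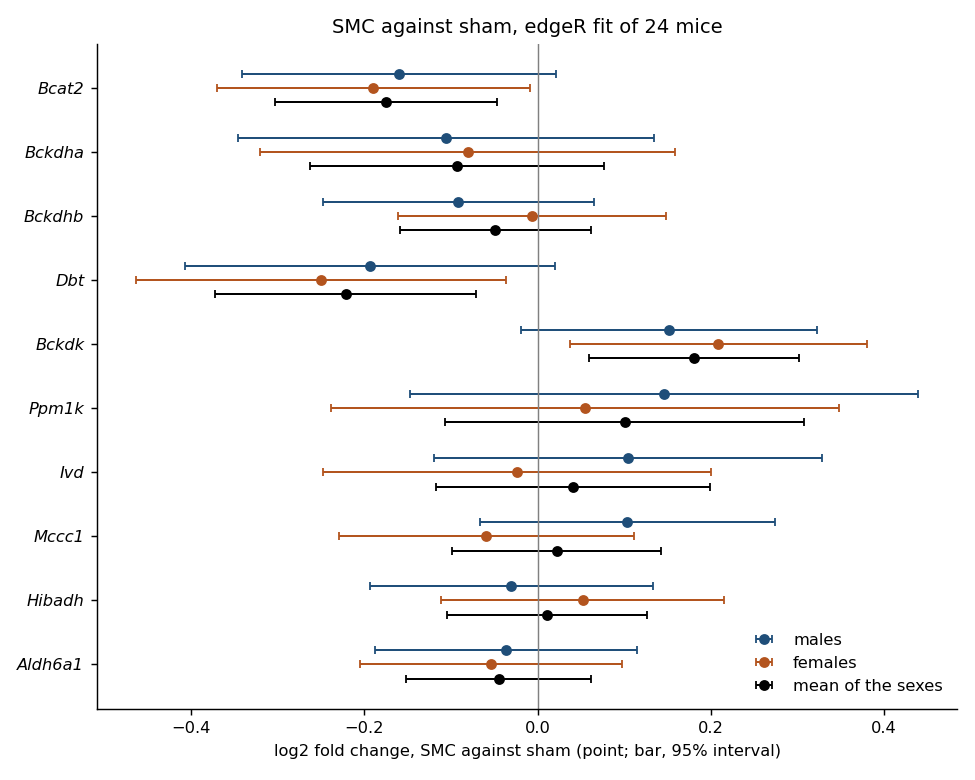
Log2 fold change of SMC against sham (horizontal axis) of the 10 genes from the edgeR fit of 24 mice, in males, in females and averaged over the sexes, with 95% intervals as bars. The averaged intervals of Bcat2 and Dbt lie below 0 and that of Bckdk above 0, without adjustment for the number of genes, while the other 7 include 0.

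In both sexes the Bckdk median was higher and the medians of Bckdha and Dbt lower with SMC, while the Bckdhb median was lower in males and slightly higher in females. The difference between the log2 CPM of Bckdk and of Bckdha, the subunit that the kinase phosphorylates, was taken within each mouse. This comparison was chosen after the data were seen. In males the difference ran from -0.062 to 0.41 in sham and from 0.26 to 0.71 in SMC, with means of 0.14 ± 0.180 and 0.42 ± 0.164 (SD, n = 6). The female values ran from 0.11 to 0.21 in sham, with a mean of 0.15 ± 0.0465, and from 0.21 to 0.80 in SMC, with a mean of 0.45 ± 0.205. The female SMC mice lay above the female sham mice, by a margin at the meeting point too small to show in these digits, and the male groups overlapped. The SMC mean exceeded the sham mean by 0.28 in males (exact permutation p = 0.0216, adjusted over 4 tests to 0.0433, two-sided) and by 0.30 in females (exact permutation p = 0.00216, the smallest that 924 relabelings allow, adjusted to 0.00866). The adjustment over 4 tests does not cover the choice of this pair. These values are read against the same test run with every other tested gene in place of Bckdha. There p was under 0.05 for 11.5% of genes in males and for 29.2% in females. Such a difference was thus common in females and not rare in males. The share of genes at the smallest p, or with groups that do not overlap, was not taken. How unusual the separation in females is therefore cannot be said. For Bckdk and the phosphatase gene Ppm1k, the difference between SMC and sham was -0.018 in males (exact permutation p = 0.913) and 0.16 in females (exact permutation p = 0.338), and the male value was 0.10 without male sham replicate 4.

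Between the sexes, Bckdhb (chr9:83925145-84124240 in GRCm38, plus strand) was lower in males. Its level ran from 12.4 to 15.8 CPM with a median of 14.5 in male sham and from 15.3 to 19.7 with a median of 17.9 in female sham. In the SMC groups it ran from 11.8 to 15.4 CPM with a median of 13.6 in males and from 16.2 to 18.7 with a median of 18.2 in females. Sham males and females overlapped narrowly, and SMC males all lay below SMC females. The log2 difference of sham males from sham females was -0.31 (SE 0.0755, edgeR FDR 0.0308). Averaged over sham and SMC it was -0.35 (95% interval -0.46 to -0.24, edgeR FDR 1.63e-04), a level in males of 0.784 times that in females.

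The sham comparison of Bckdhb was less firm than the average over sham and SMC. Without male sham replicate 4 and female sham replicate 7 it had a log2 difference of -0.27 and an edgeR FDR of 0.0765. It also missed the threshold when any of male sham replicates 2, 5 and 6 or female sham replicates 7, 10, 11 and 12 was left out, with edgeR FDR of 0.0537 to 0.0796. The average over sham and SMC passed in all 24 fits that left out 1 mouse, with edgeR FDR of 7.62e-05 to 5.53e-04. The summed level of 8 adipocyte marker genes, all of them above 0 in every library, ran from 853 to 1929 CPM in male sham, 905 to 1745 in male SMC, 1710 to 2916 in female sham and 2314 to 3157 in female SMC. Most of that sum was Car3, which muscle also expresses, with a mean of 1212 CPM in male sham and 2277 CPM in female sham. The sum of the other 7 markers overlapped between the sexes, at 69.0 to 171 CPM in male sham, 79.1 to 102 in male SMC, 72.1 to 166 in female sham and 86.2 to 298 in female SMC. Their part in the difference of Bckdhb was not tested.

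Of the 10 genes, 1 was called between sham males and sham females, against 1.97% of all genes, and the same 1 over sham and SMC, against 4.93%. At an unadjusted p under 0.05 there were 2 of 10 in sham (15.5% of all genes), Bckdhb and Mccc1, and 2 of 10 over sham and SMC (19.3%), Bckdhb and Bcat2. Mccc1 had a log2 difference of -0.17 between sham males and sham females (edgeR FDR 0.317), and Bcat2 one of -0.13 over sham and SMC (edgeR FDR 0.258). No member had sham males and sham females without overlap (1.13% of all genes), and 1 of 10, Bckdhb, had SMC males and SMC females without overlap (2.08%). The other dehydrogenase subunits did not pass over sham and SMC, with log2 differences of 0.079 for Bckdha (95% interval -0.090 to 0.25) and -0.13 for Dbt (95% interval -0.28 to 0.021).

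A further 24 genes of transport, transamination, the leucine, isoleucine and valine branches, the propionyl-CoA steps and the regulation of the pathway were all tested. None passed in males (0% of all genes) or in females (0.341%). Klf15 alone passed over both sexes, 1 of 24 against 2.36% of all genes. At an unadjusted p under 0.05 there was 1 of 24 in males, Klf15, against 11% of all genes, and 5 of 24 in females, against 12.5%. Of these 5, 4 were lower with SMC, Slc7a5, Slc7a8 and Klf15 among them, and 1 was higher (Hsd17b10). The median log2 fold change of the 24 genes was -0.019 in males, -0.087 in females and -0.047 over both sexes, and 7 of 24 (29.2%) were positive over both sexes, against 47.6% of all genes.

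Klf15 encodes a transcription factor known to promote amino acid catabolism in muscle, Bcat2 included. Its level ran from 36.6 to 99.9 CPM with a median of 43.6 in male sham and from 29.7 to 52.4 with a median of 35.0 in male SMC. In females it ran from 55.3 to 111 CPM with a median of 67.2 in sham and from 39.8 to 60.2 with a median of 50.9 in SMC. The highest mice of the sham groups were male sham replicate 4 and female sham replicate 7, which were also the mice with few slow fibre transcripts. The log2 fold change was -0.49 (SE 0.217, edgeR FDR 0.391) in males, -0.65 (SE 0.216, edgeR FDR 0.177) in females and -0.57 (SE 0.153, edgeR FDR 0.0480) over both sexes. Without those 2 mice it was -0.36 (edgeR FDR 0.0659). Klf15 passed in 8 of the 24 fits that left out 1 mouse, with log2 fold changes from -0.63 to -0.43 and edgeR FDR from 0.0284 to 0.0844. It missed the threshold without any of male sham replicates 1, 2 and 4, female sham replicates 7, 8 and 12, male SMC replicates 13, 14, 15, 16 and 18, and female SMC replicates 19, 20, 22, 23 and 24.

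**Figure D3:**
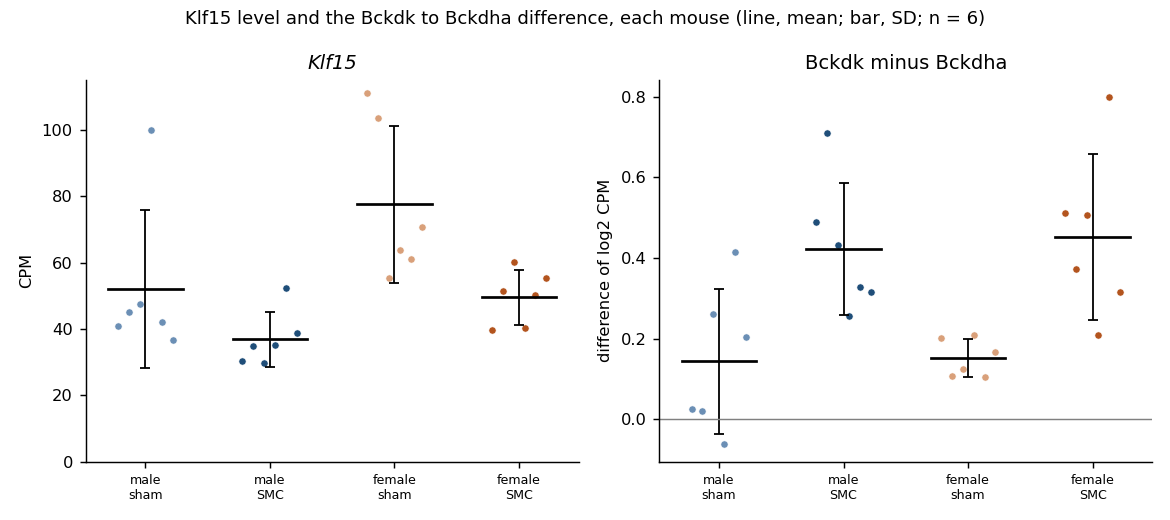
Left, Klf15 level in CPM in each mouse by group; right, log2 CPM of Bckdk minus that of Bckdha in each mouse; lines are means and bars SDs of 6 mice. Male sham replicate 4 at 99.9 CPM and female sham replicate 7 at 111 CPM are the highest sham mice for Klf15, and the SMC means of the Bckdk difference, 0.42 and 0.45, lie above the sham means of 0.14 and 0.15.

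The carriers for uptake across the cell membrane had wide spreads. Slc7a8, a light chain of the L-type amino acid transporter, had medians of 19.97 CPM in male sham, 16.8 in male SMC, 31.0 in female sham and 20.6 in female SMC. Female sham mice ran from 12.4 to 112 CPM, and the log2 fold change over both sexes was -0.79 (SE 0.266, edgeR FDR 0.109). The highest sham mice were again male sham replicate 4 at 49.3 CPM and female sham replicate 7 at 112 CPM, and the value was -0.39 (edgeR FDR 0.280) without them. Among the alternatives run it passed only without female sham replicate 9, with an edgeR FDR of 0.0379. Slc7a5, another light chain, was at group means of 2.07 to 3.32 CPM and its log2 fold change was -0.47 (SE 0.169, edgeR FDR 0.141). For Mcee, an epimerase of the propionyl-CoA steps, the log2 fold change over both sexes was -0.17 (SE 0.0967, edgeR FDR 0.392).

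Between the sexes, 0 of the 24 genes passed in sham mice, against 1.97% of all genes, and 1 passed over sham and SMC, against 4.93%. That gene was Acadsb, the acyl-CoA dehydrogenase of the isoleucine branch, with a log2 difference of males from females of -0.21 (SE 0.0502, edgeR FDR 0.0123). Its mean levels were 74.7 ± 2.78 CPM in male sham, 73.4 ± 5.85 in male SMC, 88.9 ± 8.72 in female sham and 83.1 ± 6.79 in female SMC (SD, n = 6). The sexes overlapped in sham and in SMC, where males reached 81.9 CPM and females began at 70.7 CPM. The call held in all 24 fits that left out 1 mouse.

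The spread within groups was shared by most of the 10 genes. After each group mean was removed, Dbt followed the mean of the other 9 genes with a Pearson r of 0.92 over 24 mice, Ivd with 0.89, Hibadh with 0.84 and Bckdha with 0.77. Bckdk, at 0.57, followed them less closely, and Bcat2 least, at 0.30. Among pairs, Ivd and Dbt had the highest r, 0.84, while Ppm1k and Bcat2 had the lowest, -0.13. These values describe mice that share library depth and muscle sampling, and they were similar without the 2 libraries that stood apart, at 0.92 for Dbt and 0.36 for Bcat2. The same values for other sets of 10 genes were not taken. Whether this sharing is particular to these genes therefore cannot be said.

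Some mice were low or high for many of the 10 genes. Male sham replicate 4 was the lowest of its group for 7 of the 10 genes, female sham replicate 8 for 8, male SMC replicate 14 for 7 and female SMC replicate 23 for 7. Over all tested genes these mice were the lowest of their groups for 28.1%, 19.6%, 19.8% and 21.9%, in that order. At the other end, male sham replicate 3, male SMC replicate 16 and female sham replicate 7 were the highest of their groups for 6 genes each and female SMC replicate 22 for 5. The shares of all tested genes for which these mice were the highest were 16%, 15.6%, 25.6% and 16.5%, in that order. The summed level of 8 mitochondrial genes was also lowest in its group in male sham replicate 4 at 3442 CPM, in female sham replicate 8 at 3517 CPM and in male SMC replicate 14 at 3530 CPM, where the group medians were 4540, 3999 and 4914 CPM. In female SMC, however, the lowest mitochondrial sum was in replicate 20, at 3946 CPM. The slow fibre sum was lowest in its group in male sham replicate 4, in male SMC replicate 14 at 717 CPM (median 2276) and in female SMC replicate 23 at 1541 CPM (median 3123), and in female sham it was lowest in replicate 7. The part of mitochondrial content or of fibre type in the shared spread was not tested.

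**Figure D4:**
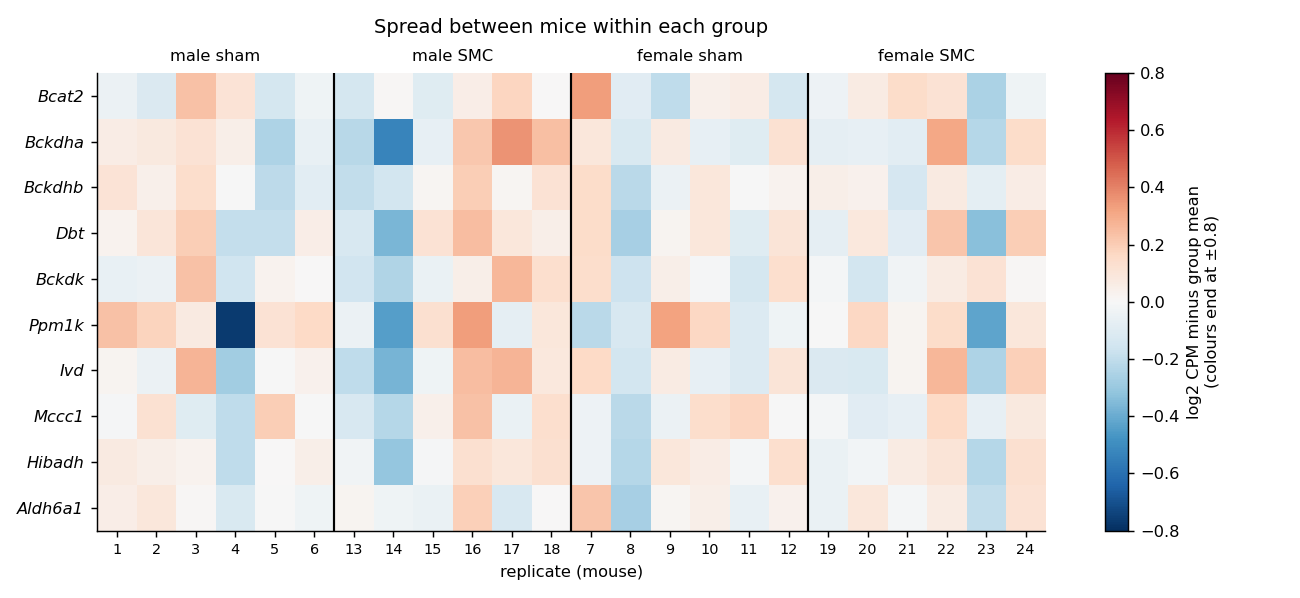
Log2 CPM of each of the 10 genes (vertical) in each mouse (horizontal, by replicate number) minus the mean of its group; red is above and blue below the group mean, and values run from -0.76 to 0.36. Male sham replicate 4, male SMC replicate 14, female sham replicate 8 and female SMC replicate 23 are blue for most genes.

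Apart from the 10 genes themselves, those whose within-group pattern was most like their mean were picked out. They were Gfm2, with a Pearson r of 0.92 over 24 mice, Gfm1 and Acads with 0.89 each, Prdx3 with 0.89 and D10Jhu81e with 0.87. These were picked from all tested genes for this likeness and are a description.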

How the data were processed

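The authors depleted ribosomal RNA, prepared directional libraries and deposited raw read counts per Ensembl gene, 1 column per mouse. The submitters' processing notes name cutadapt 1.16, STAR 2.7.9a, featureCounts 1.6, DESeq2 1.34.0 and the build GRCm39. The annotation release and strand setting of the counting were not given in the sources used here. Gene symbols were matched for 52083 of 55416 identifiers. Names, exon lengths and gene coordinates came from GENCODE M21 (GRCm38) by gene identifier, promoters from RefSeq (GRCm38.p6), and Mmut was found through its older symbol Mut.

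Groups were the sex and treatment in the labels. After filterByExpr and TMM scaling, a single model with 4 group means was fitted to the counts (edgeR 4.0.16, R 4.3.3). The quasi-likelihood test was two-sided, with Benjamini-Hochberg adjustment over 16408 genes and a threshold of 0.05. The common biological coefficient of variation was 0.206. A prior count of 2 was added for log2 CPM. The code was tested on simulated data. Two-sided exact permutation tests were used for differences between 2 genes, which were chosen after the data were seen. Alternatives were DESeq2 1.42.0, RLE factors, at least 10 counts in every sample, no filter, limma 3.58.1 voomWithQualityWeights, only the groups compared, a prior count of 0.5 for differences between 2 genes, each library left out in turn, and male sham replicate 4 with female sham replicate 7 left out. Of 60 pairs of libraries within groups, none was a duplicate, the lowest chi-square per degree of freedom being 10.3.

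All 10 members were named. Of the 24 other pathway genes, those that passed in any contrast and the 4 of smallest p over both sexes were named, as were the 5 genes most alike to the members. Hsd17b10 was named after its values were seen. The members and lists were chosen with earlier results of these data known.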

Additional observations from a re-analysis of the deposited data

Results flagged for a closer look

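In 3 of 40 groups of 6 mice (10 genes in 4 groups), 1 mouse lay far from the others by Dixon's criterion, where chance gives about 2. Ppm1k was at 11.5 CPM in male sham replicate 4, where the other 5 mice ran from 20.5 to 22.98 CPM. The same gene was at 15.8 CPM in female SMC replicate 23, where the others ran from 21.2 to 23.8 CPM. Hibadh was at 69.8 CPM in male sham replicate 4, where the others ran from 80.5 to 84.5 CPM. Male sham replicate 4 also had the lowest summed level of slow fibre genes in its group, 93.2 CPM against a median of 1786 CPM, and its part in these values was not tested.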

How the results depend on the processing

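No member was called for SMC in males, in females, over both sexes or in the sex difference under any alternative run. No paired analysis was made, because whether these sham and SMC mice were caged in pairs was not given in the sources used here. The number of members called between sham males and sham females went from 1 to 0 with no filter, without the 2 libraries that stood apart and with only the 12 libraries of the groups compared, and ran from 0 to 1 with 1 library left out. Bckdhb then had log2 differences of -0.29, -0.27 and -0.30, with FDR of 0.0984, 0.0765 and 0.153. The other pathway genes called over both sexes went from 1 to 0 with no filter (Klf15 FDR 0.0651) and without the 2 libraries, and ran from 0 to 2 with 1 library left out. Those called between sham males and sham females went from 0 to 1 with DESeq2, with voom and without the 2 libraries, and ran from 0 to 2 with 1 library left out. Klf15 between the sexes (log2 difference -0.50, FDR 0.0580) passed with DESeq2 (0.0243), with voom (0.00252) and without the 2 libraries (0.00194). The cause of these moves was not tested.

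Only uncalled values near 0 changed sign. Without the 2 libraries these were Bckdhb (0.028) and Ivd (0.013) for SMC in females, Mccc1 (-0.0042) and Hibadh (-0.015) for SMC over both sexes, and Bcat2 (-0.038), Dbt (-0.023) and Aldh6a1 (-0.068) for the sex difference in response. They also included Ppm1k (0.045) and Aldh6a1 (0.050) between sham males and females, Aldh6a1 between the sexes (0.017) and Bckdk minus Ppm1k in males (0.10). Bckdhb in SMC females changed sign with DESeq2 (0.0016) and no filter (0.0064), Hibadh over both sexes with voom (-0.0030), and in the sex difference Aldh6a1 with no filter (-0.0060) and Bcat2 with voom (-0.0059). With 1 library left out, Bckdhb for SMC in females ran from -0.049 to 0.028, Ivd from -0.076 to 0.028, Hibadh for SMC in males from -0.077 to 0.026 and over both sexes from -0.013 to 0.039, and Mccc1 over both sexes from -0.0043 to 0.044. The sex difference in response ran from -0.042 to 0.066 for Aldh6a1, -0.057 to 0.081 for Bcat2, -0.11 to 0.066 for Bckdha, -0.017 to 0.12 for Dbt and -0.038 to 0.17 for Ppm1k. Sham males against females ran from -0.076 to 0.025 for Aldh6a1 and -0.080 to 0.085 for Ppm1k, and males against females over sham and SMC from -0.043 to 0.0039 for Aldh6a1, -0.0028 to 0.045 for Hibadh and -0.030 to 0.066 for Ppm1k. Bckdk minus Ppm1k in males ran from -0.086 to 0.10.

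Over all genes the count called moved more than that of the members. In males it was 0 with edgeR, 133 with DESeq2 and 93 with voom, and in females 56, 268 and 16. With 1 library left out it ran from 0 to 78 in males (78 without male sham replicate 5) and from 0 to 147 in females (0 without female SMC replicate 22 or 23, 1 without female sham replicate 8, 134 without male sham replicate 4 and 147 without female sham replicate 9). Over both sexes it was 388 with edgeR, 778 with DESeq2 and 189 with no filter. Between sham males and females it was 324, against 575 with DESeq2 and 58 with only the 12 libraries, and over sham and SMC 809, against 1420 with voom. With 1 library left out, the count over both sexes ran from 236 to 501 (236, 243 and 238 without male sham replicates 1 and 2 and male SMC replicate 18) and that between sham males and females from 187 to 487 (193, 187, 205 and 487 without male sham replicates 1, 2, 3 and 4).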
